A study of Homo sapiens with 8 samples.

Results

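Ligand-gated ion channel receptors were followed as a set of 70 protein-coding genes among the 58233 genes of the table, taken by symbol: 19 for GABA-A subunits (GABR), 4 for glycine receptor subunits (GLRA and GLRB), 18 for glutamate receptor subunits (GRIA, GRIK, GRIN and GRID), 16 for nicotinic acetylcholine subunits (CHRN), 5 for serotonin type 3 subunits (HTR3) and 8 for ATP-gated P2X subunits (P2RX, including the readthrough gene P2RX5-TAX1BP3). Members were taken by symbol and not by level, but earlier results of these data were known when the set was chosen. All 8 RNA samples came from HUES8, a human embryonic stem cell line long in use, with no genetic change stated, differentiated in suspension toward pancreatic islet cells and taken at stage 5 of the protocol. Bulks (n = 5, from flasks 252, 261, 264, 270 and 274) are the spheroids left after buds were shaken off and filtered away, and buds (n = 3) are the detached outgrowths of flasks 264, 270 and 274. The comparison asks how the outgrowths differ from the spheroids that carried them. Flasks are separate differentiations of 1 cell line, so the p-values measure the spread between flasks of that line. The main fit did not model the pairing of bud and bulk within flasks 264, 270 and 274.

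Each of these receptors is a ring of subunits around a pore that opens when a transmitter binds. GABA and glycine receptors pass chloride, while glutamate, nicotinic, serotonin type 3 and P2X receptors pass cations. They are best known from synapses, and islet endocrine cells, which are electrically excitable and release hormone on depolarisation, also carry receptors for GABA, glutamate, glycine, acetylcholine and ATP.

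Library totals ran from 6083986 to 12508086 counts. The lists of islet endocrine genes and of pancreatic progenitor and epithelial genes moved in opposite directions between the groups. Of 19 islet endocrine markers 15 (78.9%) were called higher and none lower in buds, beside 23.4% of all genes tested called higher. Their summed level was 2720 to 10600 CPM (counts-per-million, on library sizes scaled with TMM) in the bulks and 15200 to 26600 CPM in the buds. CHGA alone made up 33.7% to 44.4% of it in the bulks and 36.5% to 42.8% in the buds. With flask as a block 11 of the markers were higher and none lower, and without the bulks of flasks 252 and 264 the counts were 14 higher and 1 lower. Of 12 progenitor and epithelial markers 11 (91.7%) were lower and none higher, beside 23.8% of all genes tested called lower. They summed to 3200 to 4410 CPM in the bulks and 1330 to 1910 CPM in the buds. Both kinds of marker were present in every library of both groups.

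Most receptor genes with enough counts to test were higher in buds, above all GABA and glutamate receptor subunits, and the few that were lower were P2X and nicotinic subunits. Summed over all 70 genes, the level was 51.0 ± 9.84 CPM per kb in the bulks (SD, n = 5) and 182 ± 8.54 CPM per kb in the buds (SD, n = 3), with no test made of the sum. The bulks lay between 43.3 and 66.0 CPM per kb and the buds between 177 and 192 CPM per kb, so the ranges did not overlap.

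Of the 70 genes, 46 passed the expression filter, and edgeR's quasi-likelihood test with Benjamini-Hochberg adjustment over all 16641 genes called 29 of them higher and 5 lower in buds. Among all genes tested 23.4% were called higher and 23.8% lower, 47.2% in all. All 3 buds lay above all 5 bulks in 29 of the 46 and below them in 4, beside 23.5% and 23.7% of all genes tested. The filter itself shapes these counts: 14 of the 46 reached it only through the buds, and all 14 were called higher, which their selection made likely. By transmitter the 14 were 5 for GABA, 6 for glutamate, and 1 each for glycine, serotonin and ATP. Of the 30 that reached it in at least 3 bulks, 15 (50%) were higher and 5 (16.7%) lower, against 21.7% and 25.3% of all genes that did so. The other 2 reached the filter in a mixture of libraries and were not called. All 29 higher genes differed by at least 2-fold, which held for 13.8% of genes tested, and 25 by at least 4-fold, which held for 5.58%. The median log2 difference over the 46 was 2.08, beside -0.02 over all genes tested. Both fold counts and this median include the 14 genes that reached the filter only through the buds, whose selection raises them. They were not computed without those 14. The count of 5 lower genes was 3 when the flask 252 bulk, the flask 270 bulk or the flask 264 bud was left out, and 2 without the flask 274 bud. In each of the 34 called genes the bud and the bulk of flasks 264, 270 and 274 differed in the called direction. That agreement is no separate evidence, since the calls used these same libraries and groups that do not overlap must agree in every flask. In RNA from whole buds or spheroids, more cells of a type and more RNA per cell cannot be told apart.

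**Figure D1:**
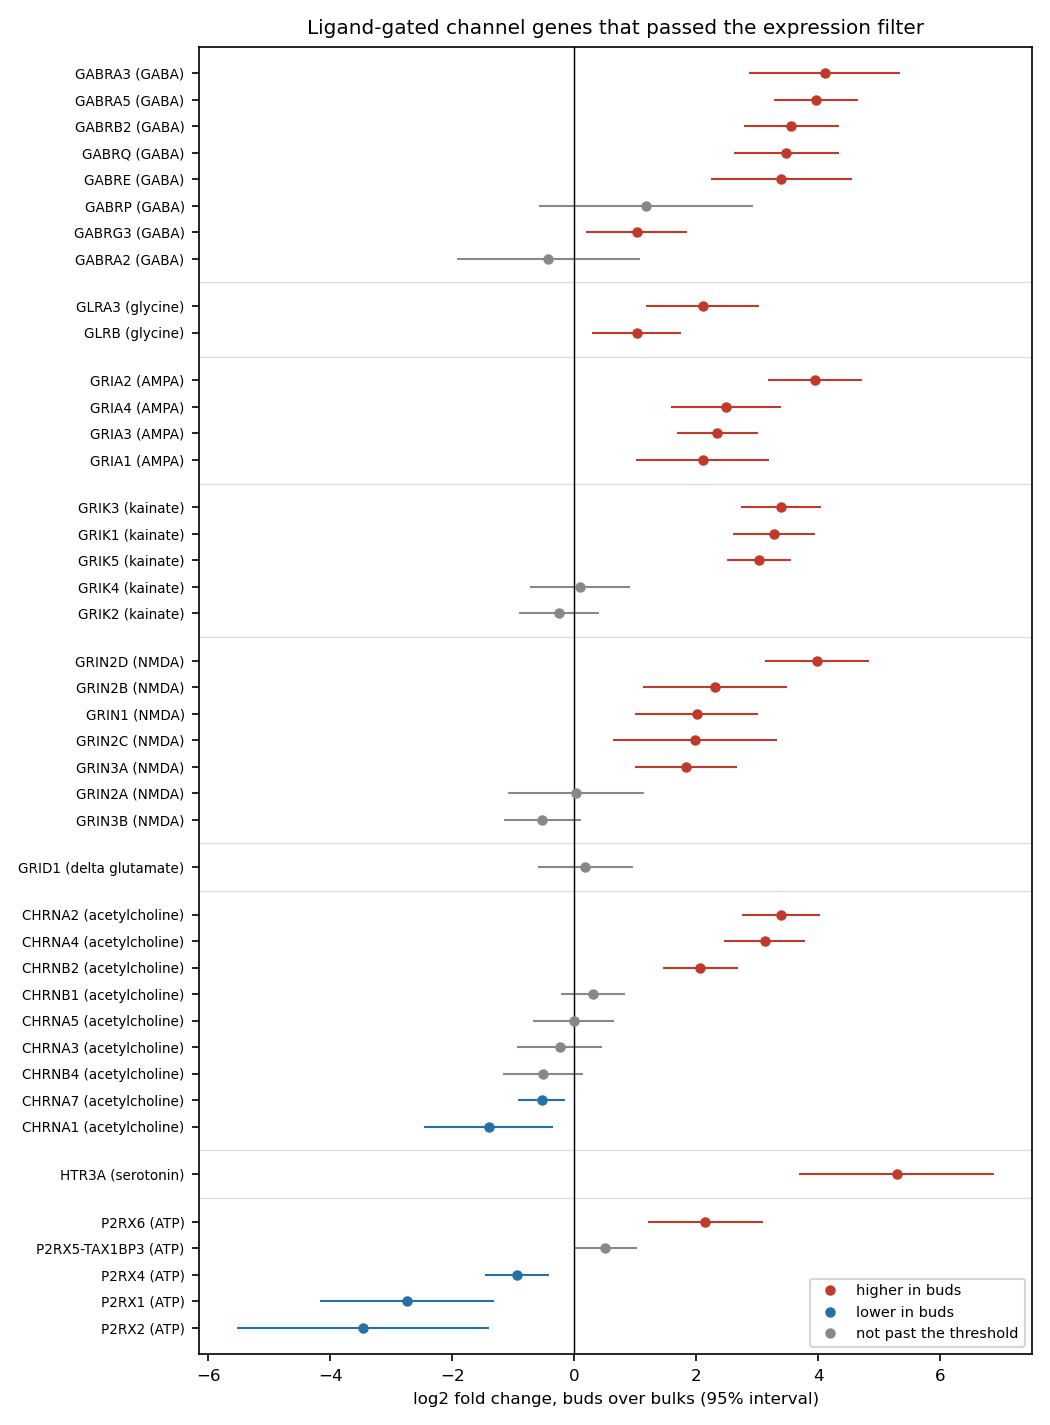
Log2 difference between buds and bulks for 42 of the receptor genes tested, grouped by transmitter, with points for the edgeR estimate and bars for its 95% interval. GABA and glutamate subunits lie mostly right of 0, HTR3A is highest at 5.29, and 3 of the 5 P2X genes lie left of 0, down to -3.46 for P2RX2.

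Throughout, values run in the flask order 252, 261, 264, 270 and 274 for bulks and 264, 270 and 274 for buds. Differences are on the log2 scale, positive where buds were higher, with the standard error of the fit, and adjusted p-values are edgeR's.

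Start-site windows are printed for 3 subunits that rose and that led their receptor class on average in buds, GRIA2, GRIK3 and CHRNB2, to set beside each other 1 window that holds letters of the RE1 element and 2 that do not. They run from 250 bases before to 50 bases after an annotated start, on the strand of the gene, from RefSeq on GRCh38.p14. RE1 is the element bound by the repressor REST, and its left part TTCAGCACC and its right part GGACAGC, which do not overlap, were each searched on both strands. The windows are chr4:157220369-157220668 (plus strand), chr1:37034466-37034765 (minus strand) and chr1:154567528-154567827 (plus strand), with every match in capitals.
GRIA2: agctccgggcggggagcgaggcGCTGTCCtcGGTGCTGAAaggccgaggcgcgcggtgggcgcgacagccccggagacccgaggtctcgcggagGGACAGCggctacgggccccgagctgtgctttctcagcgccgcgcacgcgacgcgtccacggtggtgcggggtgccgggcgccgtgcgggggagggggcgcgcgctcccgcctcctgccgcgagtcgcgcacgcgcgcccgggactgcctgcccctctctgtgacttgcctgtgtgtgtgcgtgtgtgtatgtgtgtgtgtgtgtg
GRIK3: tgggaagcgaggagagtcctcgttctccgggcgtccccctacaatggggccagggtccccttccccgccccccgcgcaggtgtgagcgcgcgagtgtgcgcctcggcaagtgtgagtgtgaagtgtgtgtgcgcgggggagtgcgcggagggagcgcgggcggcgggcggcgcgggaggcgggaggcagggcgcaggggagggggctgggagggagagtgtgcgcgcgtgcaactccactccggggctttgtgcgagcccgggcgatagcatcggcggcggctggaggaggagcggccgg
CHRNB2: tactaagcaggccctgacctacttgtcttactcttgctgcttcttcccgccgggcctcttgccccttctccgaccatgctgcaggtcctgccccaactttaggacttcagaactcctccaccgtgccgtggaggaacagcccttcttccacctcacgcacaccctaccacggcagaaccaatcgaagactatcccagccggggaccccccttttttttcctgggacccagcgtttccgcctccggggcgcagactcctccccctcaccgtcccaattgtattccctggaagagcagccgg

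GRIA2 has windows for 3 starts, and the 1 printed was chosen because it holds the left part, which its other windows lack. In it the left part lies on the opposite strand from -219 to -211 relative to the start. The right part lies beside it from -228 to -222, also on the opposite strand. A further copy of the right part lies on the gene's own strand from -156 to -150. RefSeq gives 35116 windows of this length, of which 132 (0.376%) hold the left part, 2117 (6.03%) the right part and 24 (0.0683%) both. Among the 63 windows of 46 receptor genes, 1 holds the left part, 8 windows of 7 genes the right part, and the GRIA2 window alone both. GRIK3 and CHRNB2 have neither in these windows. A match is a run of letters only, and binding was not measured. The windows are 74.3%, 74.3% and 60.3% G or C for GRIA2, GRIK3 and CHRNB2, beside a median of 58.7% over all windows. REST, named here for the motif and not by the rule for named genes, was at 84.5, 59.6, 68.9, 55.9 and 73.6 CPM in the bulks and 14.8, 7.18 and 4.98 CPM in the buds (-2.96 ± 0.32, adjusted p = 5.47e-05). Every bud was below every bulk. Its part in the receptor levels was not tested.

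Among GABA-A subunits, 9 of the 11 genes tested rose, none fell, and the other 8 had too few counts. Of the 9 that rose, 5 reached the filter only through the buds, which made their call likely. Of the 5 that reached it in at least 3 bulks, 4 (80%) were higher, against 21.7% of all genes that did so. Of the alpha subunits, which set the kinetics and drug sensitivity of the receptor, GABRA3 and GABRA5 rose from levels near the floor. GABRA3 was at 0.793, 0.797, 0, 0.916 and 0.747 CPM in the bulks and 3.77, 14.9 and 16.9 CPM in the buds. The bulk of flask 264 had no count, where 3 counts would be 0.494 CPM, and the bud of that flask was the lowest bud (4.10 ± 0.56, adjusted p = 0.0002). GABRA5, an alpha subunit mostly of receptors outside synapses, was at 0.793, 0.797, 0.659, 1.01 and 0.320 CPM in the bulks and 9.44, 10.4 and 14.4 CPM in the buds. The buds were close together and the groups did not overlap (3.96 ± 0.31, adjusted p = 1.55e-05). GABRA2 was not called: it was at 1.59, 1.06, 11.2, 2.20 and 2.67 CPM in the bulks and 2.02, 2.18 and 3.77 CPM in the buds. The groups overlapped, the bulk of flask 264 stood above all other libraries, and the log2 difference was -0.43 (95% interval -1.93 to 1.08, adjusted p = 0.635). Without that bulk it was 0.50 (adjusted p = 0.308), so its sign rests on 1 library.

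GABRB2, the beta-2 subunit, was at 2.38, 1.86, 2.80, 2.47 and 1.71 CPM in the bulks and 15.1, 19.1 and 44.6 CPM in the buds. The bud of flask 274 stood above the other buds, and the difference (3.56 ± 0.35, adjusted p = 3.25e-05) was 2.94 (adjusted p = 9.82e-05) without it. GABRQ (theta, 3.47 ± 0.39, adjusted p = 6.24e-05) and GABRE (epsilon, 3.39 ± 0.52, adjusted p = 0.000408), subunits of restricted expression in brain, rose from at most 1.60 CPM in any bulk to between 3.10 and 13.2 CPM in the buds. GABRG3 was the smallest rise of the class, 1.02 ± 0.37, adjusted p = 0.0433, and its call was not firm. With flask as a block its adjusted p was 0.0717, and the call also failed with 1 bulk left out, from flask 252 (0.0612), 261 (0.0787) or 270 (0.0553), with 1 bud left out, from flask 270 (0.163) or 274 (0.0822), and with upper-quartile factors (0.0515). GABRP, the pi subunit known mostly outside the brain, was not called at a log2 difference of 1.18 (95% interval -0.57 to 2.93, adjusted p = 0.246).

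Another 8 GABA genes (GABRA4, GABRA6, GABRB1, GABRD, GABRG1, GABRR1, GABRR2 and GABRR3) had at most 26 counts in any library. GABRR1, a rho subunit of the kind first described in retina, was at 0, 0, 0, 0.0920 and 0.107 CPM in the bulks and 0.539, 1.27 and 1.45 CPM in the buds, with all buds above all bulks. GABRA6, a subunit of cerebellar granule cells, had 1 count in all, in the bud of flask 274.

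Both glycine receptor genes tested rose. GLRB, the beta subunit that binds the scaffold gephyrin, was the most abundant glycine subunit per kb, at 1.75 ± 0.729 CPM per kb in the bulks (SD, n = 5) and 3.59 ± 1.17 CPM per kb in the buds (SD, n = 3). Its levels were 4.23, 4.12, 4.28, 7.60 and 9.501 CPM in the bulks and 7.68, 13.6 and 15.2 CPM in the buds. Its flask 264 bud lay within the range of the bulks, and the difference was small (1.02 ± 0.33, adjusted p = 0.0261). It was no longer called with 1 bulk left out, from flask 252 (adjusted p = 0.0555) or 261 (0.0544), or 1 bud, from flask 270 (0.0751) or 274 (0.114), nor in the 3 flasks with both samples and no block (0.124). GLRA3, an alpha subunit that binds glycine, was at 0.925, 0.531, 0.165, 0.549 and 1.28 CPM in the bulks and 3.10, 3.00 and 3.21 CPM in the buds. The 3 buds were nearly equal and above every bulk (2.10 ± 0.42, adjusted p = 0.00205). But GLRA3 reached the filter only through the buds, which made its call likely. GLRA1 and GLRA2, also alpha subunits, had at most 29 counts in any library and were not tested. GLRA1 was at 0 to 0.659 CPM in the bulks and 0.803 to 1.55 CPM in the buds, and GLRA2 at 0 to 0.534 CPM in the bulks and 0.674 to 2.33 CPM in the buds.

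All 4 AMPA receptor genes, which encode the fast glutamate channels of excitatory synapses, rose. GRIA2, the subunit whose RNA is edited in the pore so that channels with it pass little calcium, was at 10.05, 9.17, 4.78, 21.3 and 16.9 CPM in the bulks and 159.8, 212 and 217 CPM in the buds. Every bud was far above the highest bulk, from flask 270 (3.95 ± 0.35, adjusted p = 2.29e-05). GRIA3 was at 12.8, 12.9, 6.59, 22.6 and 18.6 CPM in the bulks and 93.6, 60.02 and 73.4 CPM in the buds. Its bud of flask 264 was the highest, whereas for GRIA2 it was the lowest (2.34 ± 0.30, adjusted p = 0.000137). GRIA4 was at 10.8, 5.31, 4.12, 20.1 and 16.9 CPM in the bulks and 78.5, 53.6 and 65.3 CPM in the buds, again without overlap (2.49 ± 0.41, adjusted p = 0.000616). GRIA1 was low, at 0.397, 0.531, 0.824, 2.01 and 1.60 CPM in the bulks and 2.29, 5.82 and 6.34 CPM in the buds. Its lowest bud was just above its highest bulk (2.11 ± 0.49, adjusted p = 0.00511). GRIA1 reached the filter only through the buds, which made its call likely. The other 3 AMPA genes reached it in at least 3 bulks.

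GRIA2 took a larger share of AMPA transcripts in every bud than in any bulk. Per kb of exon, GRIA2 was 18.1% to 20.9% of the AMPA sum in the bulks and 33.6% to 49.6% in the buds, while GRIA3 went from a mean of 53.6% to 36.1%. GRIA3 therefore led in the bulks and GRIA2 led on average in the buds, although GRIA3 still led in the bud of flask 264, at 43.4%. With the length of the longest transcript in place of merged exons, the GRIA2 share was 28.2% and 54.2% on average and that of GRIA3 43.1% and 25.7%. The order of the group means was thus the same. Shares in single libraries are given for merged exons only, so the lead of GRIA3 in the bud of flask 264 may depend on the length used. The AMPA sum itself was 4.37 ± 2.13 CPM per kb in the bulks (SD, n = 5) and 32.4 ± 2.03 CPM per kb in the buds (SD, n = 3). These shares were given no test.

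**Figure D2:**
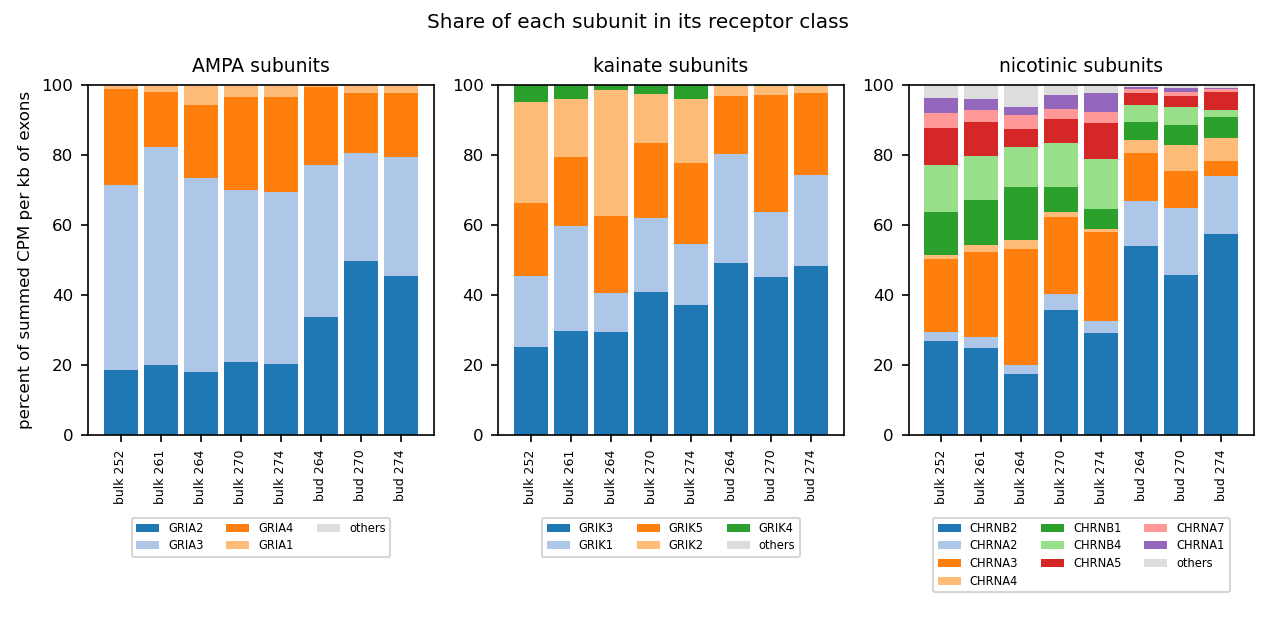
Share of each subunit in the summed level per kb of its receptor class, in percent, 1 stacked bar per library, for AMPA, kainate and nicotinic receptors. The GRIA2 share was 18.1% to 20.9% in the 5 bulks and 33.6% to 49.6% in the 3 buds, and the GRIK2 share 13.8% to 36.0% and 1.99% to 2.80%.

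Kainate receptors, which act both after and before the synapse, had 3 genes that rose and 2 that were not called. Of the 4 that reached the filter in at least 3 bulks, 3 (75%) were higher, against 21.7% of all genes that did so. GRIK3 was at 8.20, 9.56, 12.7, 24.4 and 16.97 CPM in the bulks and 176, 127 and 156 CPM in the buds. The bulks varied among themselves, with flask 270 highest, but none approached the buds (3.39 ± 0.30, adjusted p = 2.17e-05). GRIK1 was at 4.10, 5.98, 2.97, 7.88 and 5.02 CPM in the bulks and 69.7, 31.8 and 52.4 CPM in the buds, with the bud of flask 264 highest (3.27 ± 0.30, adjusted p = 2.65e-05). GRIK5, a subunit that works only together with GRIK1, GRIK2 or GRIK3, was at 3.70, 3.45, 5.11, 7.05 and 5.76 CPM in the bulks and 32.8, 50.8 and 41.2 CPM in the buds. It had the smallest adjusted p of all receptor genes (3.03 ± 0.24, adjusted p = 1.52e-05).

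GRIK2 was the exception among the abundant kainate genes. It was at 23.9, 13.8, 39.5, 21.2 and 21.1 CPM in the bulks and 25.8, 18.2 and 16.5 CPM in the buds. The groups overlapped throughout and the log2 difference was -0.25 (95% interval -0.90 to 0.41, adjusted p = 0.518). Its share of the kainate sum per kb was 13.8% to 36.0% in the bulks and 1.99% to 2.80% in the buds. Which subunit led in the bulks depended on flask and on length. With merged exons GRIK3 led in the bulks of flasks 270 and 274, GRIK2 in those of flasks 252 and 264 and GRIK1 barely in that of flask 261, with group means of 32.4%, 22.7% and 19.9%. With the longest transcript the mean was 48.7% for GRIK2 and 20.5% for GRIK3. In the buds GRIK3 led under both lengths, at 47.5% and 43.1%. GRIK4, the partner of the same kind as GRIK5, was near the filter, at 0.494 to 1.39 CPM in the bulks and 1.08 to 1.18 CPM in the buds, with a difference of 0.09 (95% interval -0.73 to 0.91, adjusted p = 0.857).

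Of 7 NMDA receptor genes 5 rose and none fell. Among these 7, 4 reached the filter only through the buds, and all 4 were called higher, which their selection made likely. Of the 3 that reached it in at least 3 bulks, 1 (33.3%) was higher, against 21.7% of all genes that did so. NMDA receptors need GRIN1, the obligatory glycine-binding subunit, together with GRIN2 subunits that bind glutamate or GRIN3 subunits that bind glycine. GRIN3A, which lowers calcium entry where it joins the channel, was the most abundant per kb in 4 of 5 bulks and all 3 buds, at 3.86 ± 2.02 CPM per kb in the bulks (SD, n = 5) and 13.9 ± 3.67 CPM per kb in the buds (SD, n = 3). Its levels were 23.1, 32.9, 10.5, 55.0 and 36.4 CPM in the bulks and 147, 88.0 and 106.8 CPM in the buds. The bulk of flask 270 came closest to the lowest bud, also from flask 270, and the groups did not overlap (1.83 ± 0.38, adjusted p = 0.00255). With flask as a block the adjusted p was 0.0522, at a log2 difference of 1.89.

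GRIN1 was low in both groups, at 0.0754 ± 0.0338 CPM per kb in the bulks (SD, n = 5) and 0.298 ± 0.153 CPM per kb in the buds (SD, n = 3). It was at 0.397, 1.33, 0.989, 0.916 and 0.534 CPM in the bulks and 1.35, 4.37 and 4.17 CPM in the buds. The bud of flask 264 barely exceeded the highest bulk, from flask 261, and those of flasks 270 and 274 were well above it (2.01 ± 0.46, adjusted p = 0.00447). Per kb, GRIN1 was 1.26% of the NMDA sum in the bulks and 1.88% in the buds on average, and 2.69% and 4.02% with the longest transcript. GRIN2D, a GRIN2 subunit that is prominent early in brain development, was at 0.132, 0.266, 0.330, 0.275 and 0.641 CPM in the bulks and 4.18, 6.73 and 5.54 CPM in the buds, without overlap (3.98 ± 0.39, adjusted p = 3.14e-05). GRIN2B, likewise early, was at 0.661, 0.133, 0.659, 1.10 and 1.17 CPM in the bulks and 1.75, 2.91 and 6.74 CPM in the buds. Flask 274 gave the highest bud, and the difference (2.31 ± 0.54, adjusted p = 0.00501) was 1.60 (adjusted p = 0.0472) without it. GRIN2C was at 0.264, 0.133, 0.989, 0.0920 and 0.747 CPM in the bulks and 2.43, 1.09 and 1.69 CPM in the buds (1.98 ± 0.61, adjusted p = 0.0205). It was not called with flask as a block (adjusted p = 0.0625) or without the bud of flask 264 (0.076).

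GRIN2A, a subunit more typical of mature synapses, was not called. It was at 9.38, 3.45, 30.5, 8.97 and 11.7 CPM in the bulks and 12.5, 11.9 and 14.3 CPM in the buds. The bulk of flask 264 was above all buds and that of flask 261 below them, and the log2 difference was 0.03 (95% interval -1.08 to 1.15, adjusted p = 0.963). GRIN3B was at 3.52 to 6.04 CPM in the bulks and 2.41 to 3.91 CPM in the buds, with a difference of -0.53 (95% interval -1.16 to 0.10, adjusted p = 0.154).

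The delta receptors resemble glutamate receptors but are held by cerebellin at the synapse and are not opened by glutamate in the usual way. GRID1 was at 2.04 ± 0.801 CPM per kb in the bulks (SD, n = 5) and 2.30 ± 0.920 CPM per kb in the buds (SD, n = 3). It was at 14.5, 7.44, 7.75, 19.0 and 14.6 CPM in the bulks and 7.82, 18.6 and 16.7 CPM in the buds, with overlapping groups and a difference of 0.18 (95% interval -0.60 to 0.96, adjusted p = 0.706).

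**Figure D3:**
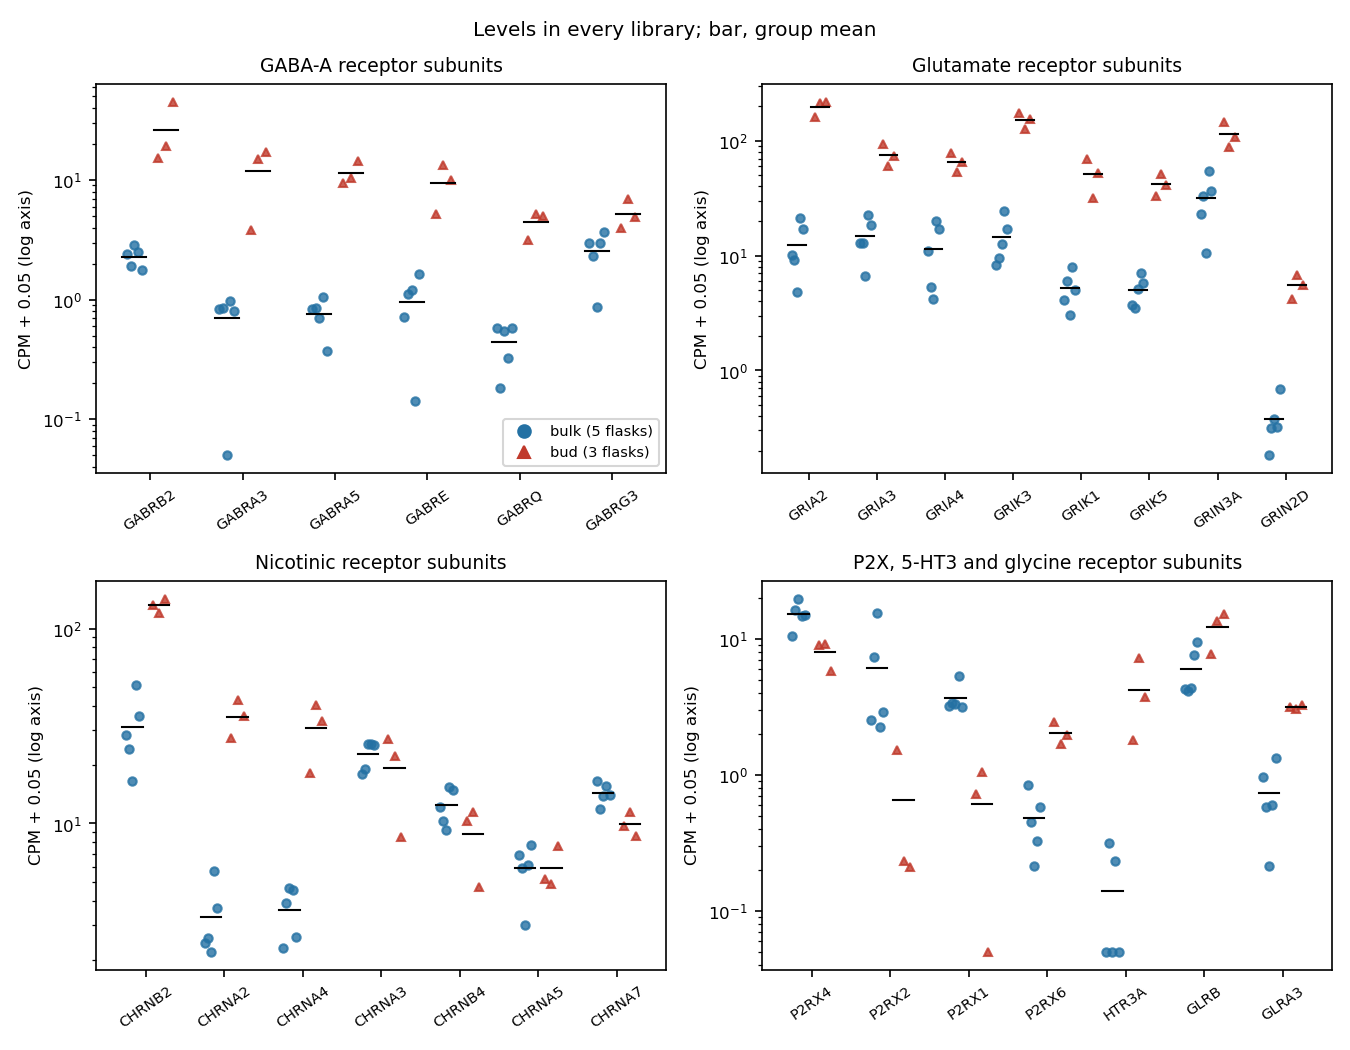
CPM in every library (log axis with an offset of 0.05 CPM) for 28 receptor genes, with a circle for each of 5 bulks, a triangle for each of 3 buds and a line at each group's mean. GRIA2 lies at 4.78 to 21.3 CPM in the bulks and 159.8 to 217 CPM in the buds, while the circles and triangles of CHRNA3, CHRNB4 and CHRNA5 overlap.

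Of 9 nicotinic genes tested CHRNB2, CHRNA4 and CHRNA2 rose, CHRNA7 and CHRNA1 fell, and CHRNB1, CHRNA3, CHRNA5 and CHRNB4 were not called. All 9 reached the filter in at least 3 bulks, and 33.3% were higher and 22.2% lower. Among all genes that did so 21.7% were higher and 25.3% lower, so the share of falls was near that of all such genes. CHRNB2, the beta-2 subunit that pairs with alpha-4 in the main high-affinity receptor of brain, was the most abundant in the buds, at 5.29 ± 2.23 CPM per kb in the bulks (SD, n = 5) and 22.4 ± 1.93 CPM per kb in the buds (SD, n = 3). Its levels were 28.3, 24.2, 16.5, 51.1 and 35.7 CPM in the bulks and 133, 119.6 and 142 CPM in the buds. All buds were above the highest bulk, from flask 270 (2.07 ± 0.28, adjusted p = 0.00018). CHRNA4, its usual alpha partner, was at 2.25, 3.85, 4.61, 4.49 and 2.56 CPM in the bulks and 18.1, 40.7 and 33.6 CPM in the buds, without overlap (3.12 ± 0.30, adjusted p = 3.04e-05). CHRNA2, an alpha subunit that also pairs with beta-2, was at 2.38, 2.52, 2.14, 5.68 and 3.63 CPM in the bulks and 27.5, 42.7 and 35.6 CPM in the buds. It too had every bud above every bulk (3.38 ± 0.29, adjusted p = 2e-05).

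CHRNA3, CHRNB4 and CHRNA5 form the receptor of autonomic ganglia. CHRNA3 was at 18.0, 19.0, 25.5, 25.5 and 25.1 CPM in the bulks and 27.2, 22.2 and 8.43 CPM in the buds. Its flask 274 bud was below every other library, the other buds were within or just above the range of the bulks, and the difference was -0.24 (95% interval -0.94 to 0.46, adjusted p = 0.556). CHRNB4 was at 9.23 to 15.4 CPM in the bulks and 4.66 to 11.4 CPM in the buds (-0.51, 95% interval -1.17 to 0.14). CHRNA5 was at 2.97 to 7.69 CPM in the bulks and 4.82 to 7.63 CPM in the buds (-0.01, 95% interval -0.68 to 0.66). CHRNA5 and CHRNA3 lie on opposite strands and share 198 exonic bases. Per kb, CHRNB2 was 26.7% and CHRNA3 25.1% of the nicotinic sum on average in the bulks, with CHRNA3 ahead in that of flask 264, and 52.2% and 9.44% in the buds. In the bulks CHRNA3 led CHRNB2 with the longest transcript (26.5% and 18.1%), and in the buds CHRNB2 led under both lengths.

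The falls among nicotinic genes were CHRNA7 and CHRNA1, a small difference and an unsteady one. CHRNA7, which forms channels of 1 subunit type, was at 16.5, 11.8, 13.8, 15.5 and 13.98 CPM in the bulks and 9.71, 11.4 and 8.59 CPM in the buds. Every bud was below every bulk, by a narrow gap (-0.54 ± 0.18, adjusted p = 0.0281). It lost the call with 1 bulk left out, from flask 252 (adjusted p = 0.0612) or 270 (0.0561), or 1 bud, from flask 264 (0.0705) or 274 (0.122), and with no expression filter (0.107). Much of CHRNA7 is duplicated in CHRFAM7A, which was at 0.165 to 1.98 CPM in the bulks and 0 to 4.82 CPM in the buds, so the division of reads between them is uncertain. CHRNA1, the alpha subunit of muscle, was at 3.83, 2.52, 1.81, 4.67 and 5.66 CPM in the bulks and 1.35, 2.27 and 0.642 CPM in the buds. The bud of flask 270 lay within the range of the bulks (-1.40 ± 0.48, adjusted p = 0.033). The call was lost with flask as a block (adjusted p = 0.0814), with 1 bulk left out, from flask 252 (0.0551), 270 (0.0602) or 274 (0.0706), and with 1 bud left out, from flask 264 (0.0785) or 274 (0.128). The summed level of 9 skeletal muscle markers was 7.01 to 12.4 CPM in the bulks and 6.42 to 9.84 CPM in the buds, with MYOD1, MYOG and TNNT3 at 0 in every library.

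CHRNB1, the beta subunit of muscle receptors, was not called at 0.31 (95% interval -0.21 to 0.83, adjusted p = 0.307). The other 7 nicotinic genes (CHRNA6, CHRNA9, CHRNA10, CHRNB3, CHRND, CHRNE and CHRNG) had at most 10 counts in any library. CHRNA6 had none. CHRNG shares 66.9% of its exonic bases with TIGD1 and CHRNE 48.6% with C17orf107, each on the other strand, so their few counts cannot be assigned with certainty.

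HTR3A, the serotonin type 3 subunit that can form a channel alone, was at 0, 0.266, 0, 0.183 and 0 CPM in the bulks and 1.75, 7.18 and 3.69 CPM in the buds. The bulks held 2 counts each in flasks 261 and 270 and none in the others, and all buds were higher (5.29 ± 0.72, adjusted p = 0.0002). HTR3A reached the filter only through the buds, which made its call likely. The size rests on few counts: leaving out the flask 261 bulk gave a log2 difference of 5.90 (adjusted p = 0.000467) and leaving out the flask 270 bud 4.70 (0.00126). HTR3B, HTR3C and HTR3D had no count in any library, where 3 counts would be 0.241 to 0.494 CPM, and HTR3E had at most 2. The 7 enterochromaffin-like markers, listed because serotonin cells arise in such cultures, summed to 138 to 290 CPM in the bulks and 595 to 775 CPM in the buds. DDC alone made up 36.1% to 52.8% of that sum in the bulks and 65.5% to 74.3% in the buds. Without DDC the other 6 genes summed to 88.0 to 141 CPM in the bulks and 153 to 268 CPM in the buds. Of the 7 markers, which all reached the filter in at least 3 bulks, 4 (57.1%) were higher and 1 (14.3%) lower. Among all genes that did so 21.7% were higher and 25.3% lower. With flask as a block 2 of the markers were higher and 1 lower. With 1 library left out, 2 were higher without the bulk from flask 252 or 264 or the bud from flask 264 or 270, and none was lower without the bud from flask 270 or 274. CBLN1 (3.06 ± 0.25, adjusted p = 1.84e-05) and DDC (2.21 ± 0.31, adjusted p = 0.000235), which makes serotonin from its precursor, led them. Their part in the HTR3A level was not tested.

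P2X receptors, opened by ATP, moved mostly down: of 5 genes tested 3 fell and 1 rose. Of the 4 that reached the filter in at least 3 bulks, 3 (75%) were lower, against 25.3% of all genes that did so. P2RX2, which forms slowly desensitising channels alone or with P2RX3, was at 2.51, 7.31, 15.5, 2.20 and 2.88 CPM in the bulks and 1.48, 0.182 and 0.161 CPM in the buds. All buds were below all bulks, and the bulk of flask 264 was the highest (-3.46 ± 0.94, adjusted p = 0.0112). The value depends on single libraries. With the flask 264 bud left out it was -5.01 (adjusted p = 0.0058) and with that flask's bulk left out -2.78 (0.0113). Leaving out the bud of flask 270 (0.0539) or 274 (0.0517) ended the call. P2RX1, a fast desensitising subunit of smooth muscle and platelets, was at 3.17, 3.32, 3.30, 5.31 and 3.10 CPM in the bulks and 0.674, 1.0 and 0 CPM in the buds. No bud reached any bulk (-2.74 ± 0.65, adjusted p = 0.00524). Without the bud of flask 270 the difference was -3.64 (adjusted p = 0.00641), and without that of flask 274 it was -2.08 (0.00379).

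P2RX4, the most widely expressed P2X subunit, was at 10.6, 16.3, 19.8, 14.7 and 15.1 CPM in the bulks and 9.03, 9.10 and 5.78 CPM in the buds. All buds were below all bulks, though the bulk of flask 252 was close to the buds of flasks 264 and 270 (-0.94 ± 0.24, adjusted p = 0.00798). P2RX6, which forms few channels by itself, was at 0.793, 0.399, 0.165, 0.275 and 0.534 CPM in the bulks and 2.43, 1.64 and 1.93 CPM in the buds. It was higher in every bud than in any bulk, at a low level (2.15 ± 0.43, adjusted p = 0.00194). P2RX6 reached the filter only through the buds, which made its call likely. Per kb, the P2X sum was 6.66 ± 3.16 CPM in the bulks (SD, n = 5) and 3.70 ± 0.901 CPM in the buds (SD, n = 3). In the bulks P2RX2 had the highest mean share with merged exons, 39.8%, through the bulks of flasks 261 (50.9%) and 264 (65.7%), and P2RX4 led in the other 3 at 31.3% to 38.7%. With the longest transcript the mean was 40.3% for P2RX4 and 32.5% for P2RX2.

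P2RX3, known from sensory neurons, did not pass the filter but was at 0.397, 0.266, 0, 0.275 and 0.427 CPM in the bulks and 0.270, 6.64 and 2.65 CPM in the buds. Its buds of flasks 270 and 274 were above every bulk and that of flask 264 was within their range. P2RX7 had no count in any bulk and 1 to 5 counts in the buds. P2RX5 and its readthrough P2RX5-TAX1BP3 share 1743 exonic bases, 43.2% of those of P2RX5, so their counts are uncertain as single values. The readthrough was at 2.46 to 3.79 CPM in the bulks and 4.01 to 4.37 CPM in the buds and was not called, at 0.51 (95% interval -0.01 to 1.03, adjusted p = 0.101).

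Receptor genes often lie in groups, and the groups moved unequally. On chromosome 15, GABRA5 (chr15:26866911-26949208) and GABRG3 (chr15:26971181-27541984) rose by 3.96 and 1.02. On chromosome X, GABRE (chrX:151953124-151974680), GABRA3 (chrX:152166234-152451315) and GABRQ (chrX:152637895-152657542) rose by 3.39, 4.10 and 3.47. On chromosome 4, by contrast, GABRG1, GABRA2, GABRA4 and GABRB1 (chr4:46035769-47426447) held no called gene, and 3 of them were below the filter. A second group without a call was CHRNA5, CHRNA3 and CHRNB4 on chromosome 15 (chr15:78565520-78727754). GLRB (chr4:157076125-157172090) and GRIA2 (chr4:157204182-157387146), neighbours on another stretch of chromosome 4, both rose, by 1.02 and 3.95. Coordinates are GRCh38 from GENCODE release 44, and no difference between groups of neighbours was tested.

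**Figure D4:**
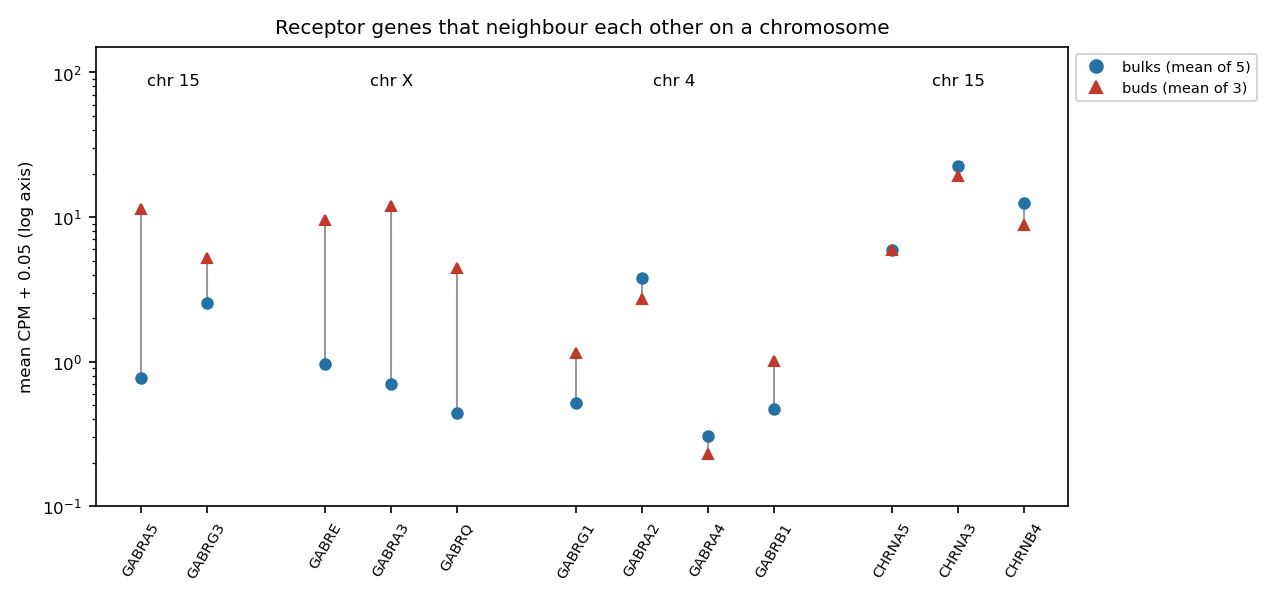
Mean CPM of the 5 bulks (circles) and the 3 buds (triangles), on a log axis with an offset of 0.05 CPM, for 12 receptor genes that lie within 2 Mb of each other. Triangles stand far above circles for the chromosome X genes (GABRA3 11.9 against 0.651 CPM), and the symbols lie close for CHRNA5 (5.86 and 5.88 CPM).

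Genes whose products accompany these receptors were also mostly higher. Of 21 auxiliary subunits and chaperones 17 were tested, 12 were higher and none lower, with a median log2 difference of 2.09. Of the 15 that reached the filter in at least 3 bulks, 10 (66.7%) were higher, against 21.7% of all genes that did so. CACNG2, also called stargazin, which brings AMPA receptors to synapses, was at 0, 0, 0, 0.183 and 0.214 CPM in the bulks and 2.16, 2.37 and 3.13 CPM in the buds (4.57 ± 0.60, adjusted p = 0.000151). SHISA7, a partner of GABA-A receptors, was at 0.529, 0.930, 0.494, 1.28 and 0.641 CPM in the bulks and 7.42, 11.1 and 9.87 CPM in the buds (3.54 ± 0.32, adjusted p = 2.31e-05). Both had every bud above every bulk, but both reached the filter only through the buds, which made this likely. Of 26 scaffold genes 25 were tested, 18 were higher and 2 lower, with a median of 0.84. All 25 reached the filter in at least 3 bulks, and 72% were higher and 8% lower, against 21.7% and 25.3% of all such genes. SHANK1, a scaffold of excitatory synapses, was at 1.19, 2.92, 2.31, 3.66 and 2.46 CPM in the bulks and 17.3, 29.2 and 25.7 CPM in the buds (3.24 ± 0.29, adjusted p = 2.35e-05), and MDGA1, which binds neuroligins, at 4.78 to 28.5 CPM in the bulks and 105 to 149 CPM in the buds (3.24 ± 0.44, adjusted p = 0.000203). HOMER3 (-1.32 ± 0.16, adjusted p = 0.000104) and DLG1 (-0.74 ± 0.20, adjusted p = 0.0107) were the lower genes. Only 1 scaffold gene was lower without the bud of flask 270, and likewise in the 3 flasks with both samples and no block.

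The receptor levels were not equal among flasks. Among the 29 higher genes, the bulk of flask 270 was the highest bulk in 14 and that of flask 264 the lowest in 13. The bud of flask 264 was the lowest bud in 20 of the 29, and that of flask 274 in none. Of the neuron markers 15 of 17 tested were higher and none lower. All 12 that reached the filter in at least 3 bulks were higher, against 21.7% of all genes that did so. They summed to 552 to 965 CPM in the bulks and 2650 to 3910 CPM in the buds. By this sum the bulk of flask 270 was the highest and that of flask 252 the lowest bulk. The bud of flask 270 was the highest and that of flask 264 the lowest bud. TUBB3, at 269 CPM in the bulk of flask 252 and 341 CPM in that of flask 264, is a large part of these bulk sums. ELAVL3, MAP2 and STMN2 were lowest in the bulk of flask 264, while NEFL, NEFM and SLC17A6 were lowest in that of flask 252. SLC17A6, a vesicular glutamate transporter (3.75 ± 0.29, adjusted p = 1.42e-05), and ELAVL3, an RNA-binding protein of neurons (3.69 ± 0.39, adjusted p = 5.18e-05), led that list, and SLC17A7 was under 1 CPM in every library. The islet endocrine sum, given above, was highest in the bulk of flask 270 and lowest in that of flask 264 among bulks, and highest in the bud of flask 264 and lowest in that of flask 274 among buds. No order of libraries was tested. IAPP, the islet amyloid peptide, had the largest rise of the 19 islet endocrine markers (3.64 ± 0.45, adjusted p = 0.000109). Of those 19, 4 were not called, hormone genes among them. Many neuron markers and receptor genes are also expressed by islet endocrine cells, and the part of either cell type in the receptor levels was not tested.

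Of the tested markers of glia and neural crest 20% were called higher in buds, and of those of mesenchyme and endothelium 25%. Both shares were near the 23.4% of all genes tested, and no liver and gut marker was called higher. Of 10 glia and neural crest genes 5 were tested, with 1 higher (AQP4) and 1 lower (ERBB3), and SOX10, FOXD3 and CDH19 were under 1 CPM in every library. The sum was 183 to 277 CPM in the bulks and 35.1 to 94.1 CPM in the buds, but ERBB3, a receptor that epithelia also express, made up 96.5% to 97.7% of it in the bulks and 59.7% to 89.7% in the buds. Without it the sum of the other 9 genes was higher in every bud than in any bulk, at 5.85 to 6.87 CPM in the bulks and 9.71 to 14.1 CPM in the buds, with no test made. Of 12 mesenchyme and endothelium genes 8 were tested, with 2 higher and 2 lower, at sums of 33.1 to 97.5 and 35.01 to 116 CPM. Of 9 liver and gut genes 8 were tested, with none higher and 5 (62.5%) lower, beside 23.8% of all genes tested. Their sums were 273 to 587 CPM in the bulks and 142 to 257 CPM in the buds. FGB (-4.32 ± 1.30, adjusted p = 0.0189) and FGA (-3.59 ± 0.73, adjusted p = 0.0022), fibrinogen chains made by liver, led these. With so few genes the counts moved with the settings: across them glia and crest had 1 to 3 higher and 1 to 2 lower, mesenchyme and endothelium 1 to 3 of each, and liver and gut 0 to 2 higher and 2 to 7 lower.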

How the data were processed

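RNA from 8 samples was measured by paired-end sequencing of polyadenylated RNA on an Illumina NextSeq instrument. The values are expected counts per Ensembl gene, deposited by the authors. STAR aligned the reads to GRCh38 and RSEM made the estimates, per the labels and the submitters' processing notes. Program versions, gene annotation and strandedness were not given in the sources used here, so reads of overlapping antisense genes cannot be told apart. RSEM divides reads between similar genes, and 11.5% of the deposited values were not whole.

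Expected counts were rounded to whole numbers, and 57392 of 58233 genes (98.6%) were matched by identifier to GENCODE release 44 for symbols, coordinates and merged exon lengths. The comparison used edgeR 4.0.16 under R 4.3.3: TMM factors, the filter by group (minimum count 10, which is 1.14 CPM, minimum total 15), the quasi-likelihood test, Benjamini-Hochberg adjustment over 16641 genes, a threshold of 0.05 and no covariate. Intervals are 95% intervals of the fit. Totals of 6083986 to 12508086 counts put 3 counts, used as the floor, at 0.241 to 0.494 CPM per library, which covers counting error only. Receptor sums and shares use CPM per kb. The fit was tested on simulated counts.

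By their labels a bud and a bulk came from each of flasks 264, 270 and 274. Flasks were taken to pair the samples, as the labels give. Within these pairs, deviations from group means had correlations of 0.123, 0.135 and 0.294. The main fit left this pairing out and treated bud and bulk of 1 flask as independent. Flask as a block was run as an alternative. Bud and bulk of different flasks correlated at -0.245 to 0.194, a range that takes in 0.123 and 0.135, so the correlations alone do not show the pairing. No 2 libraries of a group matched within sampling noise (lowest chi-square per gene 9.22, bulks of flasks 270 and 274). Other alternatives were DESeq2 1.42.0, limma-voom (limma 3.58.1), RLE and upper-quartile factors, other filters, a threshold of 0.01, the 3 flasks with both samples, longest-transcript lengths and leaving out each library. Chosen after seeing the data were leaving out both the flask 252 and the flask 264 bulk and removal of a trend over exon length.

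The receptor genes, the companion and marker lists and the tests were chosen with earlier results of these data known. Values in every library are given for called genes, up to the 6 of largest difference per transmitter (8 for glutamate), and for the highest gene per kb of each class. In lists with at least 3 called genes the 2 largest differences are named. Genes given beyond that were chosen after their values were seen. Some genes that enter the counts and sums are not reported here by name.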

Additional observations from a re-analysis of the deposited data

Results flagged for a closer look

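In 4 of the 52 receptor genes and sums examined, 1 bulk stood apart from the other 4 by more than 0.71 of the group's range, a limit that chance passes in about 1 of 20 groups. For P2RX1 the bulk of flask 270 was at 5.31 CPM and the others at 3.10 to 3.32 CPM (gap 0.898 of the range). For GABRA2 the bulk of flask 264 was at 11.2 CPM and the others at 1.06 to 2.67 CPM (gap 0.842). For GABRA3 that bulk had no count, and the others were at 0.747 to 0.916 CPM (gap 0.816). For GABRP the bulk of flask 274 was at 3.74 CPM and the others at 0.264 to 1.06 CPM (gap 0.770).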

How the results depend on the processing

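Of the 34 called receptor genes, 27 (25 higher, 2 lower) kept the call in every alternative run for them, up to 19 each, and 7 lost it in at least 1, as given beside them. None of the 34 changed direction. The number of higher genes was 26 to 35, and 26 to 31 with a library left out. The number of lower genes was 3 in the 3 flasks with both samples and no block, 2 at a threshold of 0.01, and 2 to 5 with a library left out. With flask as a replicate block 26 were higher and 4 lower, 30 of the calls were kept, and GABRG3, GRIN2C, GRIN3A and CHRNA1 were the calls lost. With both the flask 252 and flask 264 bulks left out, 28 were higher and 4 lower, and GABRG3 (adjusted p = 0.0664), CHRNA7 (0.0919) and GLRB (0.098) lost the call. In the 3 flasks with both samples and no block, GABRG3 (0.121), GRIN2C (0.0939), CHRNA1 (0.0626) and CHRNA7 (0.0662) did so too.

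None of the 12 genes without a call gained one, but the log2 difference of 8 turned its sign somewhere, and the cause was not tested. With 1 library left out at a time it ran from -0.775 to 0.495 for GABRA2, -0.337 to 1.685 for GABRP, -0.208 to 0.613 for GRIN2A, -0.566 to 0.129 for CHRNA3, -0.25 to 0.155 for CHRNA5, -0.007 to 0.461 for GRID1 and -0.062 to 0.131 for GRIK4. GABRA2 was 0.097 with limma-voom. Leaving out both bulks of flasks 252 and 264 gave 0.435 for GABRA2, 0.103 for GRIK2 and -0.048 for GRIK4. GRIN2A was -0.19 with the block, -0.177 with it in 3 flasks, -0.359 there without it, -0.015 with upper-quartile factors and -0.066 with the length trend removed. CHRNA5 was 0.099 with the block, 0.113 with it in 3 flasks, 0.072 there without it, 0.009 with DESeq2 or RLE factors, 0.01 with limma-voom, 0.008 with no filter and 0.057 with the length trend removed.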

Other observations

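Of the 24 receptor genes below the expression filter, GABRR1 and GLRA2 had every bud above every bulk, as did GLRA1, P2RX7 and GABRG1. GABRG1, a gamma subunit of the chromosome 4 group, was at 0.264 to 0.824 CPM in the bulks and 1.04 to 1.18 CPM in the buds. CHRND, the delta subunit of muscle receptors, was the reverse, at 0.132 to 0.824 CPM in the bulks and 0 to 0.080 CPM in the buds. Counts were few, at most 5 in any library for P2RX7 and 13 for GABRG1. These genes were not tested, and the share of all genes below the filter with groups apart was not computed.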
